A study of Mus musculus with 16 samples.

Results

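The genes of proximal T cell receptor signalling described here are Lck, Zap70, Lat, Lcp2, Plcg1, Themis, Cd5, Cd6 and Ubash3a. They were chosen by name, with no measured value in the rule, but with earlier results of these data known. They were matched by symbol to the gene identifiers of the deposited tables. They make up 9 of the 55401 genes in those tables, and all 9 were among the 15277 genes that passed a filter on low counts. Poly(A) RNA had been sequenced from cultures of CD8+ T cells. The study's methods for such cultures name cells of OT-I mice, in which a receptor transgene directs the T cells against a peptide of ovalbumin. By these methods the cells were activated with that peptide and then cultured with IL-15 towards memory cells (TM) or with IL-2 towards effector cells (TE). The legend of the RNA-seq figure names only splenic T cells. The study asked how loss of the pyruvate dehydrogenase complex, the step between glycolysis and the citric acid cycle, alters these cells.

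There were 4 groups with 4 libraries each. TPdh-/- TM (libraries 13 to 16) and WT TM (libraries 9 to 12) were the IL-15 cultures, and TPdh-/- TE (libraries 5 to 8) and WT TE (libraries 1 to 4) the IL-2 cultures. TPdh-/- mice carry CD4-cre and a floxed Pdha1, which encodes an E1 subunit of the complex, and per the study's methods they were adults of both sexes. Cre under the Cd4 promoter acts in the thymus in cells that go on to become CD4 and CD8 T cells, so cells that never used that promoter keep the gene. By the study's culture methods all 4 groups had been through peptide activation, and none was labelled as an unstimulated or naive sample. The labels give the genotype and the cell type of a library but do not tie libraries to animals, so each p measures the spread between libraries, which may be technical. A legend in the study gives another number of mice per condition for TM than the 4 libraries here, and which mice these came from was not settled.

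The receptor of a T cell has no enzyme of its own. Lck, a kinase held by the CD4 and CD8 coreceptors, phosphorylates the CD3 and zeta chains, and Zap70 docks there and is switched on. Zap70 in turn phosphorylates the scaffolds Lat and Lcp2 (the protein SLP-76), on which Plcg1 is brought to the membrane to make the messengers that release calcium and activate protein kinase C. Themis, Cd5, Cd6 and Ubash3a tune the strength of this signal, and Cd5 on the cell surface is known to follow how strongly a T cell has been signalled through its receptor.

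The libraries held 53007257 to 73507566 counts assigned to genes, and the 9 genes had between 2218 and 57191 counts in any library. Levels are given as CPM, counts relative to the library total after TMM scaling, when libraries are compared, and as TPM, the transcript abundance relative to the total after scaling for length, when genes are compared. Pdha1 itself had 141 to 159.7 CPM in TPdh-/- TM, 169 to 194 CPM in WT TM, 147 to 156 CPM in TPdh-/- TE and 160.1 to 162 CPM in WT TE. The TPdh-/- libraries were below the WT libraries in both cultures. The counts cover the whole gene and reads of the floxed part alone were not examined, so these values do not check the genotype. The study reported Pdha as undetected by PCR and the PDHA protein as absent in splenic T cells of TPdh-/- mice. Summed over 8 markers of CD8 T cells the level was 4177 to 4342 TPM in TPdh-/- TM, 5140 to 5406 in WT TM, 3496 to 3726 in TPdh-/- TE and 4095 to 4322 in WT TE. The sum was thus high in every library and lower in TPdh-/-. Of these markers only Cd8a and Cd8b1 set CD8 cells apart from other T cells. In the same order of groups Cd8a averaged 500, 797.5, 318 and 314 TPM, and Cd8b1 484, 797, 285 and 428 TPM. In these genes 2 libraries stood apart. WT TM library 12 was the highest of its group for Lck, Zap70, Lcp2, Plcg1, Cd5, Cd6 and Ubash3a and the lowest for Lat and Themis, and TPdh-/- TE library 5 was the lowest of its group for Zap70, Lcp2, Plcg1, Themis, Cd5 and Cd6. Calls that change without both of them are given beside the result.

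**Figure D1:**
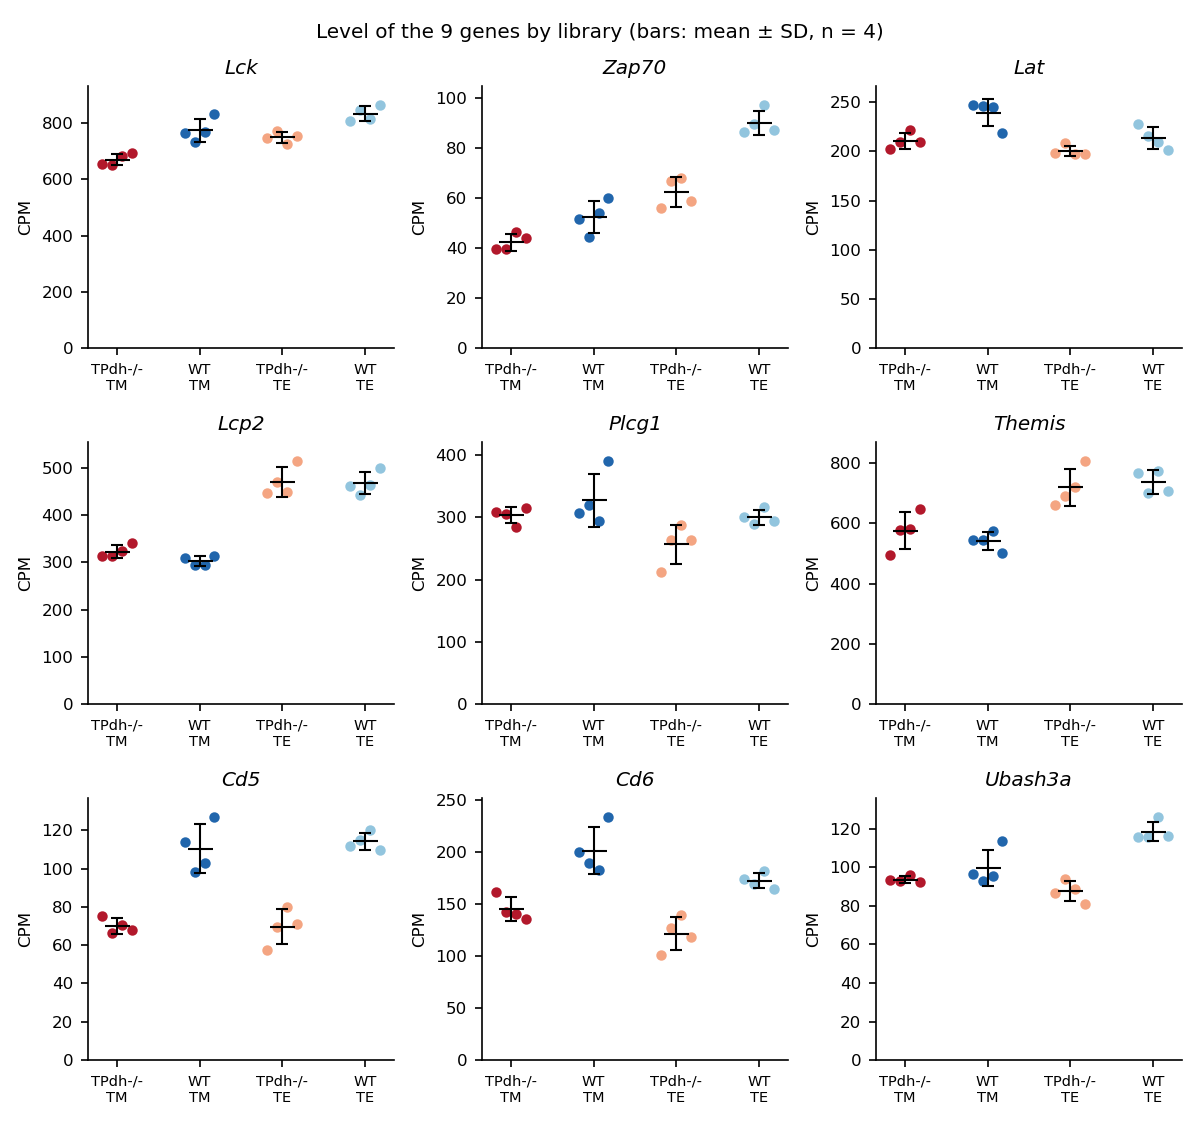
Level of each gene in CPM (y axis, from 0) in every library of the 4 groups (x axis); points are libraries, and bars show the mean and SD of 4 libraries. For Cd5 the TPdh-/- libraries sit between 57.6 and 79.7 CPM in both cultures, below all WT libraries, which sit between 98.3 and 127 CPM.

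Per length, Lck was the most abundant of the 9 transcripts and Ubash3a the least in all 4 groups. In TPdh-/- TM the mean level was 507 ± 13.7 TPM for Lck, 262 ± 10.2 for Lat, 161 ± 12.3 for Themis, 147 ± 4.59 for Lcp2, 103 ± 8.17 for Plcg1, 66.5 ± 8.58 for Cd6, 54.7 ± 5.92 for Cd5, 40.3 ± 2.54 for Zap70 and 33.2 ± 3.07 for Ubash3a (SD, n = 4). Neighbours in this order were apart in every library except Themis and Lcp2, and Cd6 and Cd5, whose libraries overlapped. In WT TM the order was the same, but from Themis down to Cd5 each gene overlapped the next, as did Zap70 and Ubash3a. In both TE groups Lcp2 (213 ± 15.1 TPM in TPdh-/- TE and 191 ± 10.5 TPM in WT TE) lay above Themis with overlap, and Zap70 (57.1 ± 5.93 TPM in TPdh-/- TE and 73.7 ± 3.83 TPM in WT TE) lay above Cd5 and Cd6, also with overlap.

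Between the genotypes the 9 genes only moved down where they moved at all. In TM 5 of 9 were lower in TPdh-/- (Lck, Zap70, Lat, Cd5 and Cd6) and 0 were higher, where 18.3% of all tested genes passed, 7.27% lower and 11.0% higher (edgeR, Benjamini-Hochberg adjusted p under 0.05). In TE 5 of 9 were lower (Lck, Zap70, Cd5, Cd6 and Ubash3a) and 0 were higher, where 31.6% of all tested genes passed, 14.3% lower and 17.3% higher. All TPdh-/- libraries lay on the same side of all WT libraries for 3 of 9 genes in TM and 6 of 9 in TE, against 20.8% and 33.1% of all tested genes. Lck, Zap70, Cd5 and Cd6, 4 of 9, were lower in both cultures, against 2.73% of all tested genes. The comparisons in TM and TE share no library, but both came from the same fit. The labels do not say whether the TM and TE libraries of a genotype came from the same mice. The median log2 difference of the 9 genes was −0.18 in TM and −0.23 in TE, beside medians of −0.0048 and −0.00025 over all tested genes. In bulk RNA, fewer cells that carry a transcript and less of it per cell cannot be told apart.

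**Figure D2:**
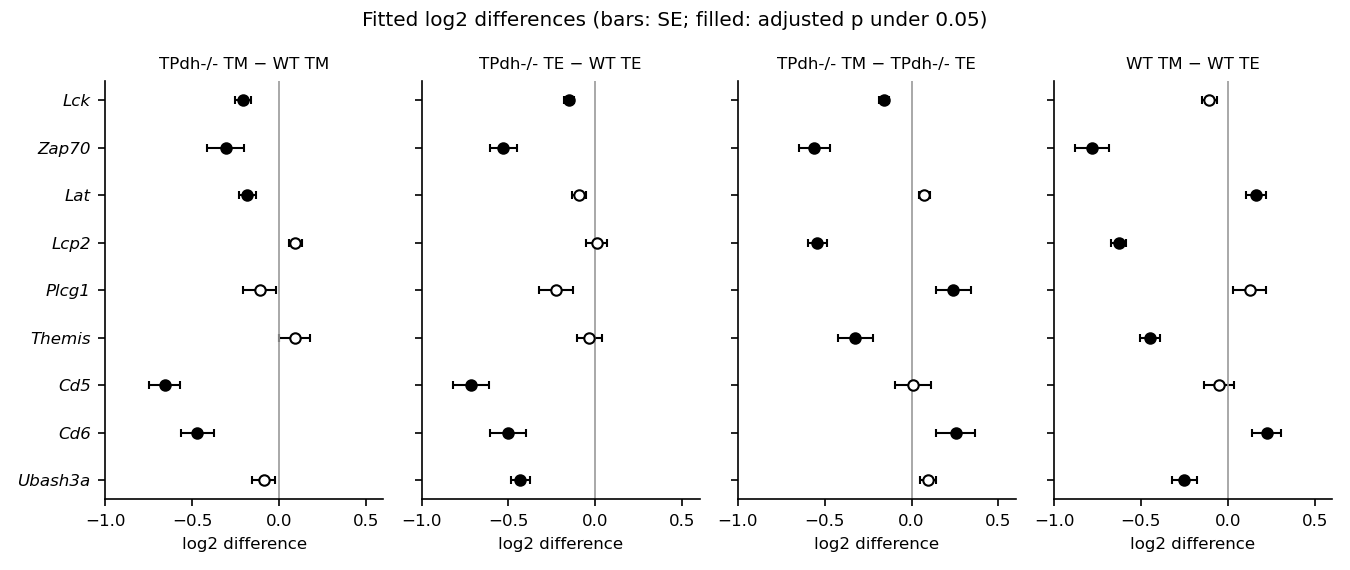
Fitted log2 difference of each gene (x axis, 0 marked) for the genotype in TM and in TE and for the culture in TPdh-/- and in WT; bars show the SE and filled points passed the threshold (edgeR adjusted p under 0.05). Cd5 stands at −0.66 in TM and −0.72 in TE for the genotype and near 0 for the culture, while Lcp2 is near 0 for the genotype and at −0.54 in TPdh-/- and −0.63 in WT for the culture.

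Lck (ENSMUSG00000000409, GRCm38 chr4:129548344-129573641, minus strand), the kinase that starts the cascade, was slightly lower in TPdh-/-. Its level was 653, 653, 682.5 and 694 CPM in TPdh-/- TM, against 764, 732, 769 and 832 CPM in WT TM, and no library of TPdh-/- TM reached any of WT TM. The log2 difference was −0.21 (SE 0.0447, edgeR adjusted p = 0.00595). In TE the level was 746, 770.3, 725 and 755 CPM in TPdh-/- TE, against 807, 848, 814 and 863 CPM in WT TE, again with no overlap and a log2 difference of −0.15 (SE 0.0296, edgeR adjusted p = 0.0226). Of the 2929 exon bases of Lck 0.854% are shared with another gene. The TE call was lost without WT TE library 4 (edgeR adjusted p = 0.0524), with library totals in place of TMM factors (log2 −0.07, edgeR adjusted p = 0.253) and in TPM, where the sign turned (log2 0.02, limma adjusted p = 0.890), and the TM call fell just outside the threshold in TPM (log2 −0.25, limma adjusted p = 0.0501).

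Zap70 (ENSMUSG00000026117, GRCm38 chr1:36761798-36782818, plus strand), the kinase that docks on the phosphorylated receptor chains, was lower in TPdh-/- in both cultures, more clearly in TE. In TE its level was 56.04, 66.8, 67.7 and 58.7 CPM in TPdh-/-, against 86.3, 89.4, 96.9 and 87.3 CPM in WT, so the groups were well apart. The log2 difference was −0.53 (SE 0.0777, edgeR adjusted p = 0.000143), and it passed under every alternative run. In TM the level was 39.6, 39.4, 46.3 and 43.9 CPM in TPdh-/-, against 51.4, 44.4, 53.8 and 59.8 CPM in WT. Here WT library 10 fell within the range of TPdh-/-, and the log2 difference was −0.31 (SE 0.106, edgeR adjusted p = 0.0180). That call was lost without TPdh-/- library 13 or 14 or WT library 12 (edgeR adjusted p = 0.0540, 0.0568 and 0.0637) and in TPM (log2 −0.29, limma adjusted p = 0.0509). The difference between the effects in TM and TE did not pass (interaction log2 0.22, SE 0.132, edgeR adjusted p = 0.232).

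The promoters of the kinases are shown because both genes were lower in both cultures. They are the 250 bases upstream of the annotated starts in RefSeq (GRCm38.p6), given 5′ to 3′ on the strand of the gene, with capitals for the letters GGAA or TTCC, the core bound by ETS factors, and TGTGGT or ACCACA, a core bound by RUNX factors, both searched on both strands. Zap70 has 3 RefSeq starts, of which the first is printed, and Lck has a distal and a proximal promoter.
Lck distal promoter, chr4:129573642-129573891, minus strand: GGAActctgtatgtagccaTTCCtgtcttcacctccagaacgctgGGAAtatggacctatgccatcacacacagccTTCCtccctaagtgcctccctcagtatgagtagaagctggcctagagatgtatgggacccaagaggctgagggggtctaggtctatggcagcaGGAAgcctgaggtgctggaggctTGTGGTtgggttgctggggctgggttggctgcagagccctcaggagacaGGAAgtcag
Lck proximal promoter, chr4:129558373-129558622, minus strand: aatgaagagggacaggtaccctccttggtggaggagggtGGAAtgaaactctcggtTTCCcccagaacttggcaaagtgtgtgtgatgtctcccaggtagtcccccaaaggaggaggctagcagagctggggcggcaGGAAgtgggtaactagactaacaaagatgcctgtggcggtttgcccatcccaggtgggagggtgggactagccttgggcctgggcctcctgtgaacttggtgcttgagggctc
Zap70 first start, chr1:36761548-36761797, plus strand: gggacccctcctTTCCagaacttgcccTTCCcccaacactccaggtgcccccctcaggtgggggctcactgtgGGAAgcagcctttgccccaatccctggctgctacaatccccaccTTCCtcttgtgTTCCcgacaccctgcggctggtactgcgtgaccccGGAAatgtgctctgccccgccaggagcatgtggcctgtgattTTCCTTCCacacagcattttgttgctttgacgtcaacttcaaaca
The Lck distal window held 6 matches to the ETS core and 1 to RUNX, the Lck proximal window 3 and 0, and the printed Zap70 window 8 and 0. The windows of Zap70 that are not printed held 7 and 1 at promoter 2 and 0 and 0 at promoter 3. Among 32851 RefSeq promoter windows of the same length, 93.4% held an ETS core, with a median of 3, and 4614 held a RUNX core. An E-box (CANNTG, not in capitals) occurred 0 times in the Lck distal window, 1 time in the proximal window and 3 times in the printed Zap70 window. It occurred in 66.2% of all windows. A match describes the letters only.

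Lat (ENSMUSG00000030742, GRCm38 chr7:126363824-126369570, minus strand), the membrane scaffold that Zap70 phosphorylates, was a little lower in TPdh-/- TM. Its level was 202, 210.1, 222 and 209.7 CPM in TPdh-/- TM, against 247, 246.5, 245 and 219 CPM in WT TM. WT TM library 12 alone overlapped TPdh-/- TM, and the log2 difference was −0.18 (SE 0.0502, edgeR adjusted p = 0.0198). The call was lost without TPdh-/- library 13 or WT library 9 or 10 (edgeR adjusted p = 0.0573, 0.0613 and 0.0506) and when only the 8 TM libraries were fitted (edgeR adjusted p = 0.0599). In TE the level was 198, 209, 198 and 197 CPM in TPdh-/-, against 228, 215.5, 209.6 and 202 CPM in WT, with overlap, and the log2 difference of −0.09 missed the threshold (SE 0.0421, edgeR adjusted p = 0.186).

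Lcp2 and Plcg1, the cytosolic adaptor and the phospholipase that meet on Lat, passed in neither genotype comparison. Lcp2 (ENSMUSG00000002699, GRCm38 chr11:34046920-34092295, plus strand) had 312 to 340.1 CPM in TPdh-/- TM, against 294 to 313 CPM in WT TM (log2 0.09, SE 0.0369, edgeR adjusted p = 0.262). Its level in TE was 447 to 514 CPM in TPdh-/- and 443 to 499.9 CPM in WT (log2 0.01, SE 0.0591, edgeR adjusted p = 0.932). Both pairs of groups overlapped. Plcg1 (ENSMUSG00000016933, GRCm38 chr2:160731300-160775760, plus strand) had 308, 306, 284 and 314 CPM in TPdh-/- TM, against 307, 319, 294 and 389.7 CPM in WT TM (log2 −0.11, SE 0.0951, edgeR adjusted p = 0.418), and without libraries 12 and 5 the difference was −0.018 (edgeR adjusted p = 0.853). In TE it had 212, 263, 287 and 264 CPM in TPdh-/-, against 300.4, 289, 316 and 294 CPM in WT. All TPdh-/- TE libraries lay below all WT TE libraries for Plcg1, library 5 farthest, yet the log2 difference of −0.23 just missed the threshold (SE 0.0976, edgeR adjusted p = 0.0592). It passed with DESeq2 (adjusted p = 0.0349), limma-trend (adjusted p = 0.0496), RLE factors (edgeR adjusted p = 0.0493) and no filter on low counts (edgeR adjusted p = 0.0409). It also passed without WT TM library 11 or 12 or TPdh-/- TE library 7 (edgeR adjusted p = 0.0454, 0.0171 and 0.0225). Without libraries 12 and 5 it passed too but was smaller (log2 −0.15, edgeR adjusted p = 0.0369).

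Themis (ENSMUSG00000049109, GRCm38 chr10:28668360-28883818, plus strand), an adaptor that binds Grb2 and the phosphatase Shp1 and sets the signal threshold in thymic selection, did not pass for the genotype. It had 496 to 646 CPM in TPdh-/- TM, against 501 to 574 CPM in WT TM (log2 0.09, SE 0.0887, edgeR adjusted p = 0.462). In TE it had 661 to 805.5 CPM in TPdh-/-, against 699.5 to 773 CPM in WT (log2 −0.03, SE 0.0719, edgeR adjusted p = 0.767). The range of the TPdh-/- libraries was the wider in both cultures and enclosed all WT libraries.

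Cd5 (ENSMUSG00000024669, GRCm38 chr19:10717116-10739002, minus strand), a surface receptor that dampens receptor signals, showed the largest genotype difference of the 9 genes in both cultures. Its level was 75.3, 66.2, 70.5 and 67.7 CPM in TPdh-/- TM, against 114, 98.3, 103 and 127 CPM in WT TM. The groups were far apart, with a log2 difference of −0.66 (SE 0.0912, edgeR adjusted p = 4.06e-05). In TE its level was 57.6, 69.5, 79.7 and 71.2 CPM in TPdh-/-, against 112, 115, 120.3 and 109.8 CPM in WT, again far apart, with a log2 difference of −0.72 (SE 0.102, edgeR adjusted p = 9.46e-06). The effect did not differ detectably between the cultures (interaction log2 0.06, SE 0.137, edgeR adjusted p = 0.811). Without libraries 12 and 5 the differences were −0.59 in TM and −0.64 in TE (edgeR adjusted p = 9.96e-06 and 2.45e-06), and both calls held under every alternative run.

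Cd6 (ENSMUSG00000024670, GRCm38 chr19:10789341-10830058, minus strand), a related receptor of the same scavenger receptor family that binds the adhesion protein ALCAM, was lower alongside it. Its level was 135 to 162 CPM in TPdh-/- TM, against 182 to 233 CPM in WT TM, with no overlap and a log2 difference of −0.47 (SE 0.0963, edgeR adjusted p = 0.00125). In TE it had 101 to 139.7 CPM in TPdh-/-, against 165 to 181 CPM in WT, a log2 difference of −0.50 (SE 0.102, edgeR adjusted p = 0.000408). Without libraries 12 and 5 these were −0.39 and −0.42, and both calls held under every alternative run. The ratio of Cd5 to Cd6 within a library was also lower in TPdh-/-. In TPM it was 0.806, 0.786, 0.842 and 0.869 in TPdh-/- TM, against 0.974, 0.888, 0.948 and 0.896 in WT TM, and the TPdh-/- libraries were all below the WT libraries.

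Cd5 and Cd6 are neighbours, with 50339 bases between them. A noncoding transcript, A430093F15Rik (ENSMUSG00000067577, chr19:10740947-10786043, plus strand), lies between them and shares no exon bases with either. It was examined after the values of its neighbours were seen. Its level was 7.74, 7.66, 7.67 and 7.58 CPM in TPdh-/- TM, against 11.3, 11.1, 11.8 and 9.84 CPM in WT TM (log2 −0.52, edgeR adjusted p = 0.00114). In TE A430093F15Rik had 8.02, 8.76, 11.3 and 10.8 CPM in TPdh-/-, against 18.9, 19.0, 18.2 and 16.1 CPM in WT (log2 −0.89, edgeR adjusted p = 2.66e-06). All 3 adjacent genes were thus lower in both cultures, against 2.73% of all tested genes. The kit gave no strand information, and whether part of the reads of A430093F15Rik came from Cd5 or Cd6 was not tested. Within 150 kb on either side of them 14 genes were tested in all, and the nearest on each side was not lower in both cultures. Vps37c had a log2 difference of 0.08 in TM (edgeR adjusted p = 0.423) and −0.30 in TE (edgeR adjusted p = 0.00210), and Slc15a3, at a mean of 0.351 CPM, was higher in both (log2 1.72 and 2.17, edgeR adjusted p = 0.00165 and 7.50e-05). The next abundant gene, Tmem109, had −0.09 in TM (edgeR adjusted p = 0.481) and 0.24 in TE (edgeR adjusted p = 0.0221). Farther off, Tkfc was lower in TM (−0.22, edgeR adjusted p = 0.0461), where 7.27% of all tested genes were lower. In TE Tmem138 and Cyb561a3 were lower (−0.27 and −0.24, edgeR adjusted p = 0.0191 and 0.00279) and Ccdc86 higher (0.47, edgeR adjusted p = 0.00522). There 14.3% of all tested genes were lower and 17.3% higher. No other gene of the window passed.

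**Figure D3:**
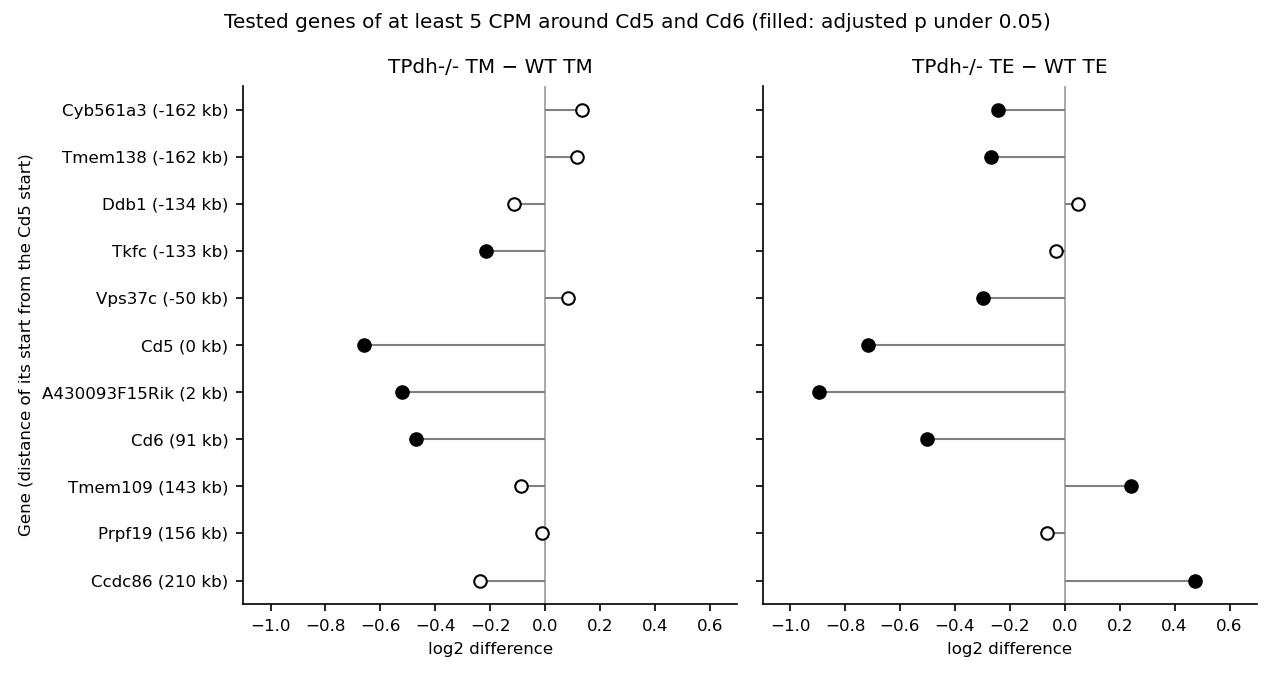
Fitted log2 differences (x axis) for tested genes of at least 5 CPM around Cd5 and Cd6, in chromosomal order from top to bottom with the distance of each start from that of Cd5, for TPdh-/- against WT in TM and in TE; filled points passed the threshold (edgeR adjusted p under 0.05). Cd5, A430093F15Rik and Cd6 run from −0.47 to −0.66 in TM and from −0.50 to −0.89 in TE, and the other genes lie between −0.30 and 0.47.

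The promoter of Cd5 is shown for this pair (RefSeq, GRCm38.p6, 250 bases upstream of the start, capitals as above). Cd6 had no entry in the promoter table.
Cd5 promoter, chr19:10738975-10739224, minus strand: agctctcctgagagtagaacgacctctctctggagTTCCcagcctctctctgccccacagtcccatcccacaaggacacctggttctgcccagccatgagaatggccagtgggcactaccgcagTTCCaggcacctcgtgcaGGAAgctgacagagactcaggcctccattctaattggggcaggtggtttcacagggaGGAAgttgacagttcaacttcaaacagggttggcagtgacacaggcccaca
The window held 4 matches to the ETS core, 0 to RUNX and 2 to the E-box.

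Ubash3a (ENSMUSG00000042345, GRCm38 chr17:31207873-31246892, plus strand), whose protein TULA restrains receptor signalling, was the only one of the 9 genes whose genotype effect differed between the cultures. In TE its level was 87.0, 94.2, 88.9 and 81.2 CPM in TPdh-/-, against 116, 116, 126 and 116 CPM in WT, with no overlap and a log2 difference of −0.43 (SE 0.0534, edgeR adjusted p = 4.37e-05). In TM it was 93.5, 92.8, 96.2 and 92.3 CPM in TPdh-/-, against 96.5, 92.9, 95.5 and 113.5 CPM in WT, and apart from WT library 12 the libraries lay together (log2 −0.09, SE 0.0668, edgeR adjusted p = 0.348, and log2 −0.021 without libraries 12 and 5). The interaction was 0.34 (SE 0.0856, edgeR adjusted p = 0.0114), and 1 of 9 genes was higher and 0 lower by this test, where 15.6% of all tested genes passed, 8.05% higher and 7.51% lower. In TPM the interaction was 0.13 (limma adjusted p = 0.690) and the TE difference −0.27 (limma adjusted p = 0.180), so that both calls were lost.

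The next comparison set TM cultures against TE cultures, first in TPdh-/- and then in WT. These comparisons share their libraries with the genotype comparisons. In TPdh-/- 4 of 9 genes were lower in TM (Zap70, Lcp2, Themis and Lck) and 2 were higher (Plcg1 and Cd6), where 67.7% of all tested genes passed, 34.7% lower and 33.0% higher. In WT 4 of 9 were lower in TM (Zap70, Lcp2, Themis and Ubash3a) and 2 were higher (Lat and Cd6), where 68.6% of all tested genes passed, 34.3% in each direction. The groups did not overlap for 4 of 9 genes in TPdh-/- and 5 of 9 in WT, against 59.8% and 63.9% of all tested genes. These counts of 9 are close to the shares of all genes, and the median size of the difference was 0.24 in TPdh-/- and 0.22 in WT for the 9 genes on the log2 scale, against 0.44 and 0.46 for all tested genes.

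Zap70, Lcp2 and Themis were lower in TM in both genotypes, and their groups did not overlap. The log2 difference was −0.56 (SE 0.0888, edgeR adjusted p = 1.71e-05) in TPdh-/- and −0.78 (SE 0.0969, edgeR adjusted p = 3.23e-07) in WT for Zap70. For Lcp2 it was −0.54 (SE 0.0547, edgeR adjusted p = 1.41e-07) in TPdh-/- and −0.63 (SE 0.0431, edgeR adjusted p = 2.18e-08) in WT. Themis had −0.32 (SE 0.0998, edgeR adjusted p = 0.00122) in TPdh-/- and −0.45 (SE 0.0555, edgeR adjusted p = 5.70e-05) in WT. Cd5 did not pass between the cultures (0.01 in TPdh-/-, edgeR adjusted p = 0.938, and −0.05 in WT, edgeR adjusted p = 0.638), although in TPM the log2 difference was 0.26 in WT (limma adjusted p = 0.0499).

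The remaining culture differences were smaller and less firm. Cd6 had 0.26 in TPdh-/- (SE 0.113, edgeR adjusted p = 0.0182) and 0.22 in WT (SE 0.0838, edgeR adjusted p = 0.0343), but the first was lost without library 13 or 5 (edgeR adjusted p = 0.0630 and 0.0695) and the second without library 9, 12, 1, 2 or 4 (edgeR adjusted p = 0.0600 to 0.154). With both 12 and 5 left out Cd6 had 0.15 in WT (edgeR adjusted p = 0.0581). Plcg1 had 0.24 in TPdh-/- (SE 0.0985, edgeR adjusted p = 0.0218), lost without library 5 (edgeR adjusted p = 0.0822) but not when library 12 was left out too (0.16, edgeR adjusted p = 0.0105), and 0.13 in WT (SE 0.0942, edgeR adjusted p = 0.207). In WT it passed with library totals (log2 0.21, edgeR adjusted p = 0.0488) and in TPM (log2 0.48, limma adjusted p = 0.00129), where the median of all genes was 0.12. Lat had 0.07 in TPdh-/- (edgeR adjusted p = 0.216) and 0.16 in WT (SE 0.0563, edgeR adjusted p = 0.00964). Lck had −0.16 in TPdh-/- (SE 0.0291, edgeR adjusted p = 0.00733) and −0.11 in WT (SE 0.0451, edgeR adjusted p = 0.0604). In TPM the TPdh-/- call was lost (log2 −0.07, limma adjusted p = 0.462) and the sign turned in WT (log2 0.20, limma adjusted p = 0.0336). Lck in WT passed without WT TM library 12, TPdh-/- TE library 7 or WT TE library 1 (edgeR adjusted p = 0.00786, 0.0482 and 0.0455), with both 12 and 5 left out (−0.14, edgeR adjusted p = 0.00965) and with DESeq2 (adjusted p = 0.0151) or RLE factors (edgeR adjusted p = 0.0451). Ubash3a had 0.09 in TPdh-/- (edgeR adjusted p = 0.185) and −0.25 in WT (SE 0.0720, edgeR adjusted p = 0.00145), and the WT call just missed the threshold in TPM (log2 −0.34, limma adjusted p = 0.0502).

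Most of these genes have a close relative that does the same step in B, NK or myeloid cells, and the balance within a library was followed as the ratio of their TPM. The 8 pairs were compared in 4 contrasts by exact 2-sided permutation tests of the log2 ratio with 0.1 TPM added to each gene, and 20 of the 32 comparisons reached the smallest p that 4 against 4 libraries allow (exact p = 0.0286, adjusted 0.0457). Zap70 exceeded Syk, its relative in B and NK cells, by 14.7, 23.1, 27.2 and 29.7 times in TPdh-/- TM, against 90.2, 51.1, 117 and 122 times in WT TM. In TE the ratio was 97.6, 119, 92.5 and 75.2 in TPdh-/-, against 213, 208, 283 and 214 in WT. The ratio was thus lower in every TPdh-/- library in both cultures, with log2 differences of −1.98 in TM and −1.26 in TE (adjusted p = 0.0457 in each, exact permutation test).

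Syk itself differed more between the genotypes than Zap70. It had 10.01, 6.36, 6.16 and 5.34 CPM in TPdh-/- TM, against 1.78, 2.98, 1.32 and 1.40 CPM in WT TM (log2 1.90, SE 0.328, edgeR adjusted p = 2.53e-05). In TE Syk had 1.77, 1.75, 2.30 and 2.58 CPM in TPdh-/-, against 1.03, 1.19, 0.831 and 1.11 CPM in WT (log2 1.01, SE 0.175, edgeR adjusted p = 0.00625). Its TPdh-/- libraries were above its WT libraries in both cultures, and its level stayed far below that of Zap70.

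**Figure D4:**
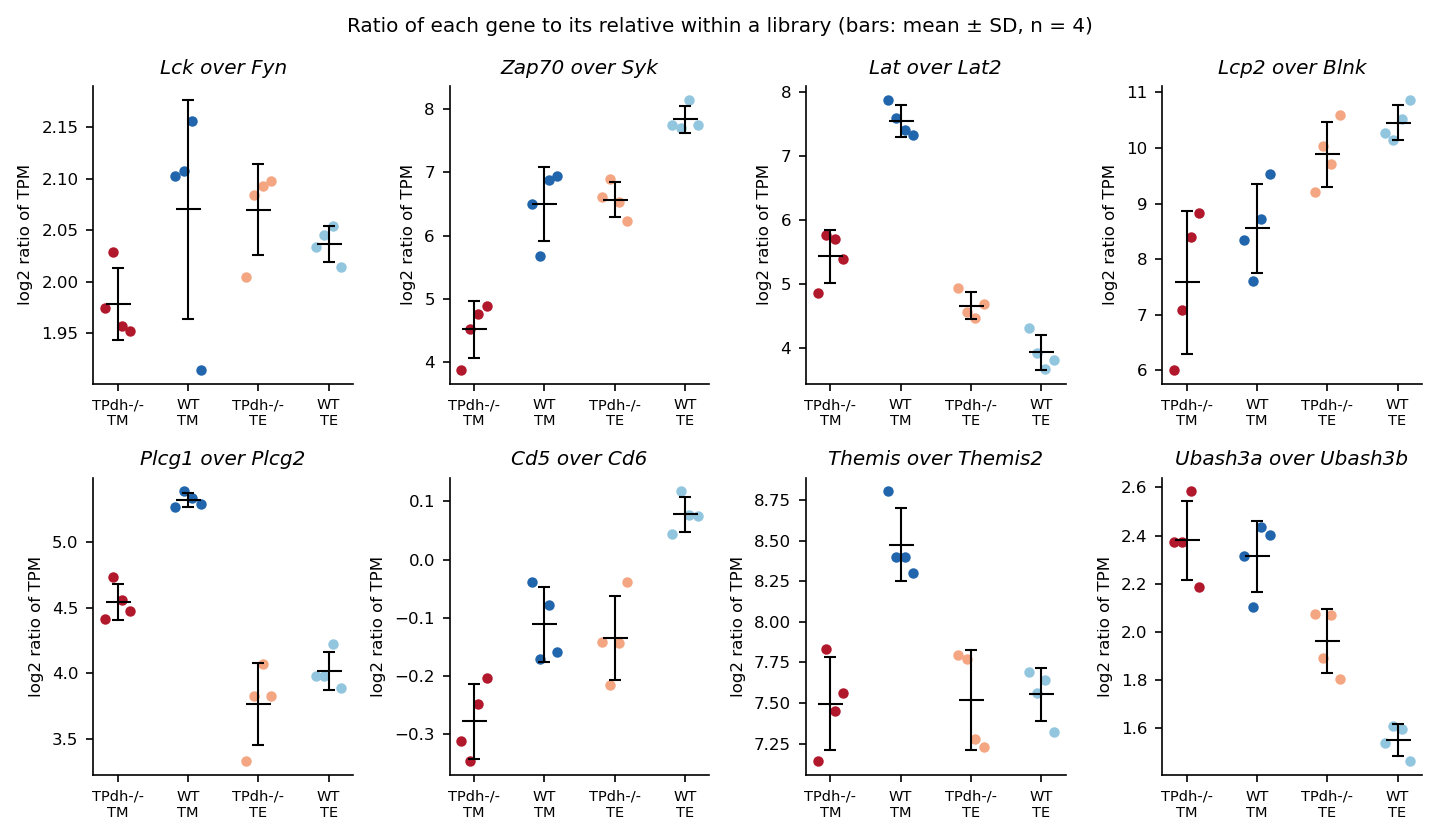
Log2 of the TPM ratio of each gene to its relative within a library (y axis, 0.1 TPM added to each, axes not from 0) in the 4 groups (x axis); points are libraries, and bars show the mean and SD of 4. Lat over Lat2 averages 5.43 in TPdh-/- TM and 7.55 in WT TM but 4.66 in TPdh-/- TE and 3.93 in WT TE.

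Lat over Lat2, the counterpart of Lat in B and myeloid cells, moved in opposite ways in the cultures. The ratio was 29.0, 54.1, 52.3 and 42.1 in TPdh-/- TM, against 236, 193, 169.7 and 160.2 in WT TM (log2 −2.12). In TE it was 30.5, 23.5, 22.0 and 25.9 in TPdh-/-, against 19.9, 15.1, 12.8 and 14.02 in WT (log2 0.73). Neither pair of groups overlapped (adjusted p = 0.0457 in each, exact permutation test). Lat2 was higher in TPdh-/- TM (log2 2.23, edgeR adjusted p = 4.20e-08) and lower in TPdh-/- TE (log2 −0.85, edgeR adjusted p = 8.80e-05), and 36.3% of its exon bases are shared with Rfc2, so part of its reads may have been divided.

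Plcg1 over Plcg2 and Themis over Themis2 were lower in TPdh-/- TM, by log2 differences of −0.77 and −0.98 (adjusted p = 0.0457 in each, exact permutation test), and did not pass in TE (−0.25 and −0.04, adjusted p = 0.271 and 0.914, exact permutation test). Plcg1 and Themis themselves did not pass for the genotype in TM. Plcg2 averaged 4.325 TPM in TPdh-/- TM and 2.74 TPM in WT TM. Themis2 averaged only 0.7975 and 0.3525 TPM, where the added 0.1 TPM weighs on the ratio. Ubash3a over Ubash3b, the relative that is the stronger phosphatase, was higher in TPdh-/- TE by 0.41 (adjusted p = 0.0457, exact permutation test), and Ubash3b had 31.9 to 37.2 CPM in TPdh-/- TE, against 58.9 to 63.5 CPM in WT TE (log2 −0.84, edgeR adjusted p = 5.23e-07). Cd5 over Cd6 was lower in TPdh-/- by 0.17 in TM and 0.21 in TE on the log2 scale (adjusted p = 0.0457 in each, exact permutation test). Lck over Fyn passed in no contrast (adjusted p = 0.0795 to 0.640, exact permutation test). Blnk, the relative of Lcp2, had only 1 to 6 counts in WT TE, and its ratios are not interpreted.

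Most markers of NK, gamma-delta T and myeloid cells were higher in TPdh-/- in both cultures, while those of B cells mostly did not pass. In TM 7 of 8 NK cell, 6 of 6 gamma-delta T cell, 5 of 7 macrophage and monocyte (1 was too low to test), 2 of 4 CD4 T cell and 1 of 6 B cell markers were higher and 0 lower, where 11.0% of all tested genes were higher. In TE the counts higher were, in the same order of lists, 5 of 8, 6 of 6, 4 of 7, 2 of 4 and 0 of 6, where 17.3% of all tested genes were higher, and the only marker of these lists that was lower was Eomes, a factor that CD8 T cells also express. Over 8 NK cell markers the sum was 92.4 to 135 TPM in TPdh-/- TM, against 27.9 to 39.7 TPM in WT TM, and 42.2 to 48.7 TPM in TPdh-/- TE, against 47.2 to 61.4 TPM in WT TE. Eomes made up most of that sum in TE, with 22.2 to 35.0 TPM in TPdh-/- TE, against 38.2 to 50.5 TPM in WT TE. The other 7 NK cell markers, summed without Eomes after the values were seen, had 66.6 to 102.6 TPM in TPdh-/- TM, against 5.53 to 8.34 TPM in WT TM, and 10.3 to 19.9 TPM in TPdh-/- TE, against 7.95 to 10.9 TPM in WT TE. Over 7 macrophage and monocyte markers it was 22.1 to 36.6 TPM in TPdh-/- TM, against 5 to 6.39 TPM in WT TM, and 13.6 to 22.0 TPM in TPdh-/- TE, against 8.21 to 10.6 TPM in WT TE. Over 6 gamma-delta T cell markers it was 159 to 187 TPM in TPdh-/- TM, against 56.2 to 63.8 TPM in WT TM, and 195 to 317 TPM in TPdh-/- TE, against 90.5 to 101 TPM in WT TE. Over 6 B cell markers it was 8.86 to 38.7 TPM in TPdh-/- TM, against 10.2 to 20.4 TPM in WT TM, and 8.02 to 9.85 TPM in TPdh-/- TE, against 6.85 to 7.83 TPM in WT TE, and over 4 CD4 T cell markers 7.15 to 10.01 TPM in TPdh-/- TM, against 3.49 to 5.26 TPM in WT TM, and 15.8 to 24.6 TPM in TPdh-/- TE, against 10.5 to 17.0 TPM in WT TE. No marker of these lists was at 0 in all libraries of a group, and in WT TM 4 of 8 NK cell markers and 5 of 7 macrophage and monocyte markers stayed under 1 TPM. Their part in the levels of the 9 genes and of their relatives was not tested.

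The deposited tables also give a mean transcript length for each gene, weighted by the abundance of its transcripts, which moves when the mix of isoforms moves. Between the genotypes the groups were apart in 0 of 9 genes in TM, where 2.59% of 11725 genes with a varying length were longer and 1.53% shorter, and in 2 of 9 in TE, Lat (longer by 4.47 bases in TPdh-/- TE, where 2.12% of genes were longer) and Themis (shorter by 212 bases, where 3.72% were shorter). Between the cultures more were apart. In TPdh-/- 4 of 9 genes were shorter in TM than in TE with no overlap (Lck, Plcg1, Cd5 and Cd6) and Ubash3a was longer, where 14.8% of all such genes were shorter and 11.7% longer. In WT 5 of 9 were shorter (Lcp2 besides those genes) and 0 longer, where 17.1% were shorter and 9.50% longer.

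Plcg1 had a mean length of 3675, 3672, 3800.3 and 3756 bases in TPdh-/- TM, against 4279, 4269, 4204 and 4200.2 in TPdh-/- TE, and 3705, 3724, 3750.2 and 3880.1 in WT TM, against 4195, 4241, 4262 and 4286 in WT TE. The means thus differed by −512 bases in TPdh-/- and −481 bases in WT. Cd5 averaged 1795 ± 22.7 bases in TPdh-/- TM and 1962 ± 19.6 in TPdh-/- TE, and 1813 ± 33.2 in WT TM and 1961 ± 11.3 in WT TE (SD, n = 4). Ubash3a went the other way, with 3581 ± 226 bases in TPdh-/- TM and 2935 ± 192 in TPdh-/- TE. None of the 36 comparisons passed after adjustment, since the smallest p that 4 against 4 libraries allow became 0.0857 (exact 2-sided permutation test). The mean fragment length was 307 to 325 bases in TPdh-/- TM and 296 to 306 in WT TM, with no overlap. It was 303 to 314 bases in TPdh-/- TE and 302 to 308 in WT TE. Fragment length enters the effective length and so TPM, and its part in the values given here was not tested.

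**Figure D5:**
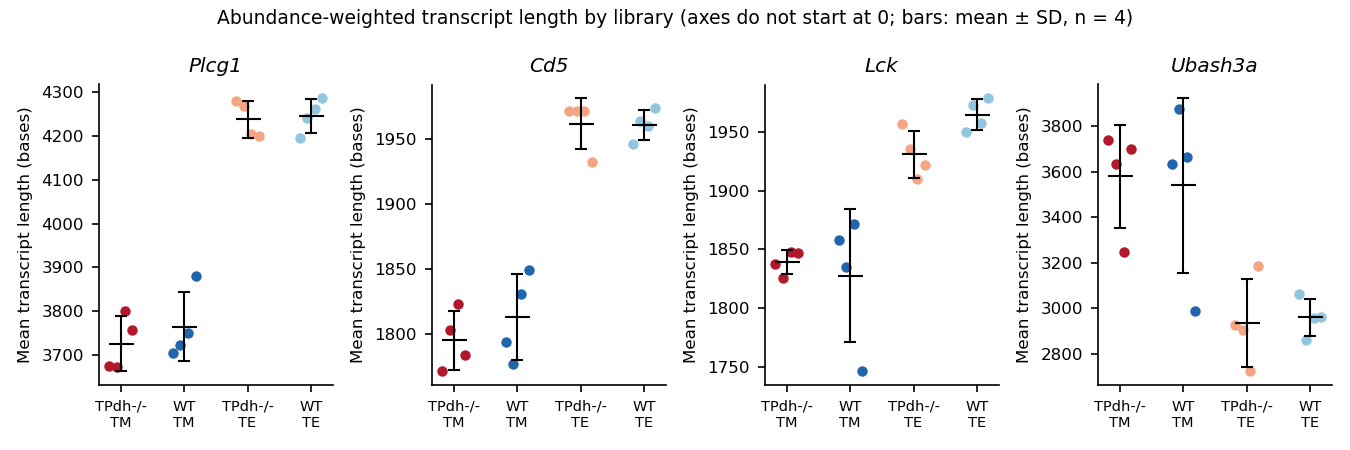
Mean transcript length in bases, weighted by abundance (y axes, not from 0), of Plcg1, Cd5, Lck and Ubash3a in each library of the 4 groups (x axis); bars show the mean and SD of 4 libraries. Plcg1 libraries lie between 3672 and 3880.1 bases in TM and between 4195 and 4286 bases in TE.

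Other genes of the pathway were counted over lists set by function. Of 8 genes of the receptor complex and coreceptors 0 were higher and 4 lower in TPdh-/- TM, where 11.0% of all tested genes were higher and 7.27% lower. In TPdh-/- TE 0 were higher and 7 lower, where 17.3% of all tested genes were higher and 14.3% lower. The medians of the 8 genes were −0.12 in TM and −0.46 in TE on the log2 scale. Cd8b1 and Cd8a, the chains of the CD8 coreceptor, had −0.69 and −0.62 in TM (edgeR adjusted p = 6.23e-07 and 3.77e-05). The zeta chain Cd247 followed with −0.25 (edgeR adjusted p = 0.000841), and 60.3% of its exon bases are shared with other genes. In TE the leading genes were Cd8b1 with −0.73 (edgeR adjusted p = 2.29e-07), the CD3 chain Cd3g with −0.52 (edgeR adjusted p = 3.22e-05) and the adhesion receptor Cd2 with −0.45 (edgeR adjusted p = 0.000111).

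Of 13 kinases and phosphatases around Lck and Zap70, 2 were higher and 3 lower in TM, where 18.3% of all tested genes passed, and 1 higher and 7 lower in TE, where 31.6% passed. Those lower in TM were Ptpn6, the phosphatase Shp1 (log2 −0.76, edgeR adjusted p = 5.17e-06), Csk, the kinase that locks Lck (−0.32, edgeR adjusted p = 0.00869), and Pag1, the anchor of Csk (−0.23, edgeR adjusted p = 0.0156). In TE they were led by Lime1, a membrane adaptor 92.5% of whose exon bases are shared with Zgpat (−0.43, edgeR adjusted p = 0.000287), Ptpn22, a phosphatase that acts on Lck (−0.35, edgeR adjusted p = 0.000295), and Ptpn6 (−0.44, edgeR adjusted p = 0.000600).

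Of 13 adaptors and ligases that restrain the receptor, 1 was higher and 2 lower in TM, near the 18.3% of all tested genes that passed, and 1 higher and 8 lower in TE, where 31.6% passed. In TM the adaptors Sit1 and Sla2, the second sharing 23.6% of its exon bases with Rab5if, were lower (−0.51 and −0.30, edgeR adjusted p = 1.17e-05 and 0.000549). The ubiquitin ligase Rnf128 (GRAIL) was higher in TM (1.55, edgeR adjusted p = 0.00212) but scarce, at 0.729 to 1.313 CPM in TPdh-/- TM, against 0.203 to 0.450 CPM in WT TM. In TE Rnf128 had 1.272 to 2.732 CPM in TPdh-/-, against 2.027 to 3.639 CPM in WT, with overlap. In TE the adaptors Lax1 and Sla and the ubiquitin ligase Cblb led, at −0.77, −0.73 and −0.53 (edgeR adjusted p = 6.82e-07, 1.09e-05 and 1.01e-06). The proteins of this list are known to oppose the signal, as Cd5 and Ubash3a are.

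Of 16 adaptors of the Lat complex 1 was higher and 0 lower in TM, where 18.3% of all tested genes passed, and 2 higher and 7 lower in TE, where 31.6% passed. The one higher in both was Trat1, an adaptor bound to the receptor complex (2.53 in TM and 3.05 in TE, edgeR adjusted p = 1.51e-06 and 7.37e-08), and Skap2 and Sh2d2a were lower in TE (−0.83 and −0.52, edgeR adjusted p = 2.07e-06 and 1.44e-05). Of 19 genes of the steps after Plcg1, 2 were higher and 5 lower in TM, where 18.3% of all tested genes passed, and 3 higher and 6 lower in TE, where 31.6% passed. The calcineurin subunit Ppp3ca was higher in TM (0.57, edgeR adjusted p = 2.28e-06), and Nfatc1, a factor that calcineurin activates, was lower (−0.33, edgeR adjusted p = 0.0109), as was the kinase Itpkb (−0.30, edgeR adjusted p = 0.0169). In TE Malt1 and Prkcq were lower (−0.48 and −0.23, edgeR adjusted p = 1.68e-05 and 0.000416) and Rasgrp1 higher (0.33, edgeR adjusted p = 0.000310).

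Among 10 genes that receptor signals induce, 1 was higher and 2 lower in TM, where 11.0% of all tested genes were higher and 7.27% lower, and 1 higher and 5 lower in TE, where 17.3% were higher and 14.3% lower. Egr1, an early response factor, was lower in both, at 17.9 to 25.9 CPM in TPdh-/- TM, against 41.4 to 50.6 CPM in WT TM (log2 −0.96, edgeR adjusted p = 0.000168), and at 17.9 to 29.1 CPM in TPdh-/- TE, against 33.4 to 47.3 CPM in WT TE (log2 −0.83, edgeR adjusted p = 0.000342). Nr4a1, another early response gene, was lower in TM (−1.07, edgeR adjusted p = 0.00167) but scarce. Its level was 0.569 to 0.808 CPM in TPdh-/- TM, against 0.796 to 1.935 CPM in WT TM, with overlap. Nfkbid was lower in TE (−0.34, edgeR adjusted p = 0.00102). Nr4a3 was higher in TM (0.38, edgeR adjusted p = 0.00368) and lower in TE (−0.34, edgeR adjusted p = 0.00626).

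Among themselves the 9 genes fell into patterns over the 16 libraries, which share groups and library effects, so correlations of log2 CPM are a description. Lcp2 and Themis went together (Pearson r = 0.911), as did Cd5 and Cd6 (r = 0.887), Lck and Zap70 (r = 0.856) and Plcg1 and Cd6 (r = 0.847), while Lat and Lcp2 ran opposite (r = −0.623). Among 9154 tested genes of at least 5 CPM the pattern most like that of Lck was Ptpn6 (r = 0.964), then Ccdc85c and Eif3l, and for Zap70 it was Pym1 (r = 0.984), then Dnaaf5 and Helb. For Lat it was Jkamp (r = 0.921), then Rap2b and Rhoh, for Lcp2 Evi2a (r = 0.986), then Tecr and Dpagt1, and for Plcg1 Vsir (r = 0.936), then Sidt2 and Pacs1. Cd5 was most like Arrb2 (r = 0.953), then Itprip and Bin1, and Cd6 most like Ubald1 (r = 0.955), then Vrk3 and Haao. Themis was nearest to Gyg (r = 0.970), then mt-Rnr1 and Cep19, and Ubash3a to Tbc1d2b (r = 0.936), then Zyx and Selplg.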

How the data were processed

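RNA of 16 libraries was analysed, 4 for each combination of genotype and culture, grouped by the genotype and cell type in the labels. Per the labels, a TruSeq kit without strand information was used on poly(A) RNA, and the processing notes of the submitters name STAR 2.7.6a, RSEM 1.3.3, DESeq2 without a version and the build mm10 (GRCm38). The annotation release is not given in the sources used here. The authors deposited, for each gene and library, RSEM expected counts, TPM (scaled by the authors for length and library total), FPKM, which was not used, and a length and an effective length in bases. RSEM divides reads that match several genes or isoforms by estimation.

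Expected counts were rounded and filtered with filterByExpr (minimum count 10, total 15), and all 16 libraries entered a quasi-likelihood fit of 4 group means with TMM factors in edgeR 4.0.16 (R 4.3.3). Benjamini-Hochberg adjustment ran over the 15277 tested genes of each of 5 contrasts, with a threshold of 0.05. Standard errors were taken from the variance of log2 CPM within the compared groups. TPM ratios and transcript lengths were compared by exact 2-sided permutation tests, adjusted over 32 and 36 comparisons. DESeq2 1.42.0, limma 3.58.1, other scalings and filters, and fits without libraries served as alternatives, and the fit was tested on simulated data. Symbols were matched for 55141 of the 55401 genes. Promoters are from RefSeq (GRCm38.p6), where 8 of the 9 genes matched. The 9 genes, the lists and the tests were chosen with earlier results of these data known. All 9 genes are described. A list of related kinases is not reported here. Up to 3 called genes per list and genotype contrast are named by smallest adjusted p, and 3 genes per member by the highest correlation of log2 CPM (prior count 2), leaving out predicted genes. The genes around Cd5 were chosen after their values were seen. Python 3.11.15 prepared tables and figures.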

Additional observations from a re-analysis of the deposited data

Results flagged for a closer look

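Of 72 groups of 4 libraries tested for a library far from the other 3, 4 had one, and chance gives about 1 in 20. Lat had 219.1 CPM in WT TM library 12, where the other libraries had 245.1 to 246.9 CPM. Lat also had 208.6 CPM in TPdh-/- TE library 6, where the others had 197.1 to 198.2 CPM. Ubash3a had 126 CPM in WT TE library 3, where the others had 115.6 to 116.4 CPM. The mean transcript length of Cd5 was 1932 bases in TPdh-/- TE library 8, where the others had 1971 to 1972 bases.

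The genotype effect differed between TM and TE by the interaction test of edgeR for Ubash3a and for 4 relatives of the 9 genes. Ubash3a had an interaction of 0.34 on the log2 scale (edgeR adjusted p = 0.0114). Lat2 had 3.08 (edgeR adjusted p = 1.00e-07), Themis2 1.10 (edgeR adjusted p = 0.00955), Ubash3b 0.73 (edgeR adjusted p = 0.000278) and Plcg2 0.68 (edgeR adjusted p = 0.00300). Each was positive, so the TPdh-/- level relative to WT was higher in TM than in TE.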

How the results depend on the processing

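The genotype calls of Cd5 and Cd6 in both cultures and of Zap70 in TE passed under every alternative run. With log2(TPM + 1) and limma the number of the 9 genes lower in TPdh-/- was 3 in TM and 3 in TE, the number higher in TM than in TE in WT was 5, and the interaction had 0 genes higher and 1 lower (Lat, −0.25); this setting moved the median of all genes by 0.11 in WT TM against WT TE and by −0.12 in the interaction. Without libraries 12 and 5 the number higher in WT TM was 1. Signs turned in TPM for the genotype in TE (Lck 0.017, Lat 0.044, Themis 0.18), for TM against TE (Lck 0.20 and Cd5 0.26 in WT, Ubash3a −0.21 in TPdh-/-) and for the interaction (Lcp2 −0.14, Plcg1 −0.035, Cd5 −0.082, Cd6 −0.13, Themis −0.16). With library totals alone they turned for Themis in TE (0.046), Cd5 in WT TM against TE (0.036) and the interactions of Cd5 (−0.012) and Cd6 (−0.036). Lcp2 in TE was −0.011 with no filter on low counts, and without libraries 12 and 5 Themis in TE was 0.0031 and Cd5 in TPdh-/- TM against TE −0.072. The cause was not tested. Of the values whose sign turned, only Lck in TE had passed the edgeR test as reported.

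With 1 library left out at a time, 3 to 5 genes were lower in TPdh-/- TM (3 without TPdh-/- TM library 13) and 4 to 6 in TPdh-/- TE. In TM against TE, 1 to 2 were higher in WT (1 without library 9, 12, 1, 2 or 4) and 0 to 2 in TPdh-/- (0 without library 5, 1 without library 13), and 4 to 5 were lower in WT. The interaction had 1 gene higher in each. Signs turned within these ranges: Lcp2 in TE −0.046 to 0.031, Themis in TE −0.10 to 0.0036, Cd5 in TM against TE −0.13 to 0.0047 in WT and −0.072 to 0.085 in TPdh-/-, and the interactions of Cd5 (−0.024 to 0.14) and Cd6 (−0.047 to 0.12). TPM ratios without overlap numbered 20 to 23, and transcript lengths 12 to 15. No paired analysis was possible because the labels do not tie libraries to animals, so whether cultures were paired is not known. Counting error was small at 2218 counts or more per gene, and n = 4 libraries per group limits the rest.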
